A study of Sus scrofa with 6 samples.

Results

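Among the assembled noncoding transcripts of pig skeletal muscle, a small class lies on the same strand as an annotated gene and shares exonic sequence with it. The class comprised 56 of the 4046 transcripts in the deposited table. They were chosen by their class code, the label that compares an assembled transcript with the reference annotation, which was o (exonic overlap, 41 transcripts) or j (at least 1 splice junction shared with an annotated gene, 15 transcripts). One transcript of these classes, MSTRG.18512.2, was left out beforehand. The annotated gene was a small noncoding RNA for 33 of the 56 transcripts (18 loci), U6 spliceosomal RNA for 1, and another gene for 22. The measured values, FPKM (fragments scaled to exon length and library size), did not enter the choice. RNA was sequenced after removal of ribosomal RNA from longissimus dorsi muscle (LDM, a mostly glycolytic muscle of the back) and psoas major muscle (PMM, a more oxidative muscle of the loin). Both came from untreated female Qinyu pigs (spelled Qingyu in the study's text) of 178 days. Each muscle had 3 libraries that the study calls biological replicates. The labels do not tie a library to a pig, so a difference between animals and one between muscles cannot be told apart where both move together.

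Small nucleolar RNAs (snoRNAs) guide the chemical modification of ribosomal RNA, box C/D snoRNAs its methylation and box H/ACA snoRNAs the change of uridine to pseudouridine. Small Cajal body RNAs (scaRNAs) do the same for the spliceosomal RNAs. In mammals most of them are cut from introns, often of spliced host transcripts that encode no protein, such as the SNHG (snoRNA host gene) family known from human. A long spliced transcript that carries the name of a snoRNA is therefore not the snoRNA itself, and the short mature RNAs were not measured separately from it here. RNase P RNA is the catalytic RNA of the enzyme that trims the leader of transfer RNA precursors, and miR-206 is a microRNA known from skeletal muscle.

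The transcripts were spliced without exception, with 2 to 6 exons. Those at small RNAs had 3.91 exons on average and those at other genes 2.64, against 2.57 in the 409 other spliced transcripts of the table. Their length ran from 216 to 13235 bases around a median of 1076.5. All 24 snoRNA transcripts and all 5 scaRNA transcripts of the table had class code o, and so did 3 of its 4 microRNA transcripts. All 15 transcripts of class j lay at other genes.

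The median of their mean FPKM was 1.14, the same as in the other spliced transcripts, and 0.413 in the 3580 transcripts with 1 exon. Of the 56, 45 (80.4%) were above 0 in all 6 libraries, against 85.1% of the other spliced and 14.5% of the unspliced transcripts. In LDM 48 were above 0 in all 3 libraries and in PMM also 48, with 45 in common. Coding potential was low by the way the table was built, and the median of the deposited CPC score, where lower values mean less coding potential, was -1.12 in the class and -1.12 in the other spliced transcripts. A search by name covered 39 protein genes of the snoRNA-protein particles, RNase P, the Cajal body, the microRNA pathway and the muscle fibre. None was the name of any transcript searched. MSTRG.18512.2, left out beforehand, was not searched here or for the markers that follow. Of 9 marker genes of other cells, 1 (PDGFRB, of pericytes and fibroblasts) named a transcript, which is no member and was not called. The table holds noncoding transcripts only, so the identity of the muscles could not be checked with fibre genes.

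Each library had 7.24 to 8.78 gigabases behind its FPKM values, and 51 to 53 of the 56 transcripts were above 0 in any one library. They made up 2.52% to 15.7% of all FPKM of the table in 5 libraries and 47.5% in LDM replicate 2, where 1 transcript at RNase P RNA held most of it. A pair of loci thus stood apart before any comparison, RNase P RNA in LDM replicate 2 and SCARNA13 in PMM replicate 3, and values with and without these libraries follow below.

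**Figure D1:**
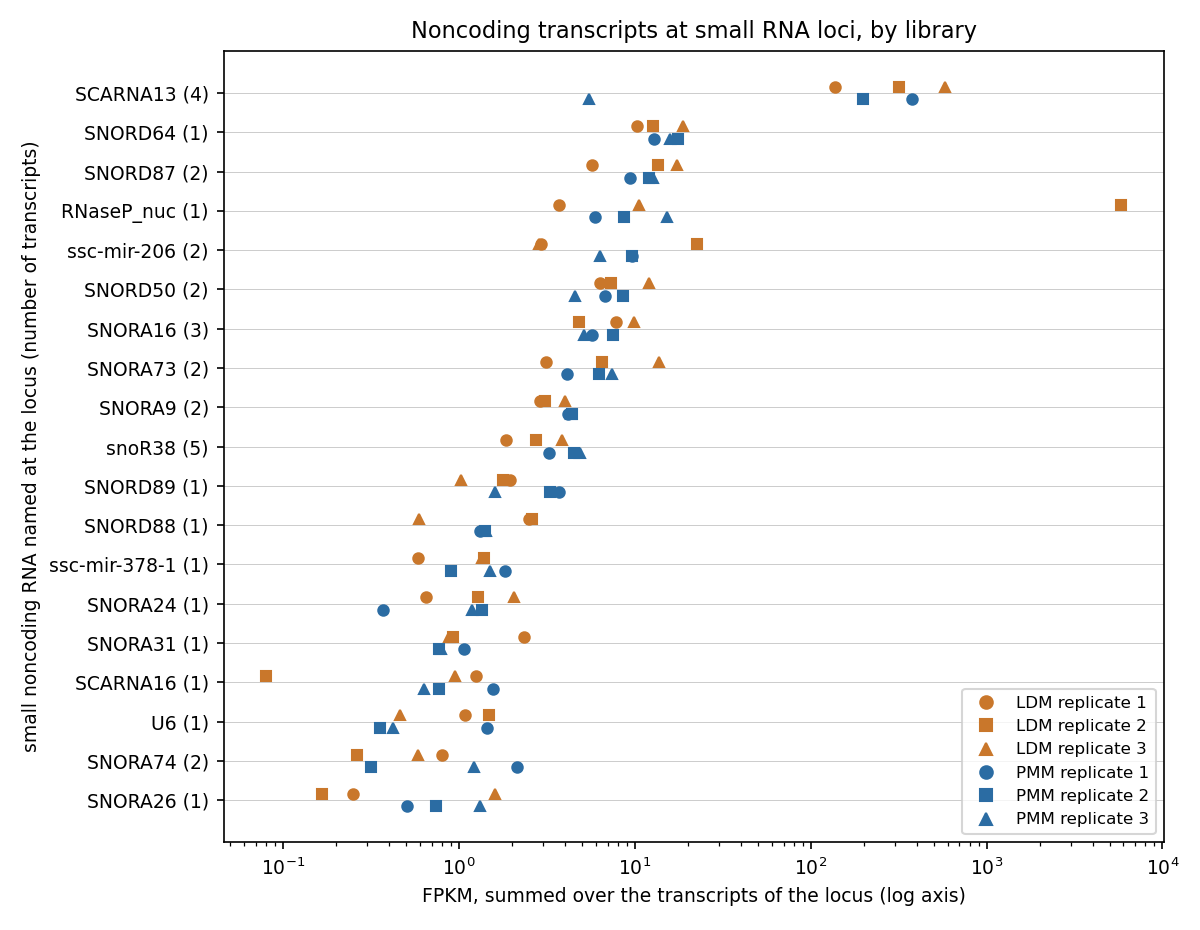
FPKM of each library (log axis) at the 18 small RNA loci and at U6, summed over the transcripts of the locus (their number in parentheses), with LDM above and PMM below each line. LDM replicate 2 stands at 5825 FPKM at RNase P RNA (RNaseP_nuc) and PMM replicate 3 at 5.49 FPKM at SCARNA13, while the muscles overlap at most other loci.

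Differences between the muscles were tested with limma on log2(FPKM + 1), as LDM minus PMM, across the 1721 transcripts that were above 0 in all 3 libraries of at least 1 muscle. Of the 56 transcripts 51 passed this filter, 30 of 33 at small RNAs, 20 of 22 at other genes and the one at U6. Of these, 3 passed through LDM alone (MSTRG.17390.3 at SCARNA13 and MSTRG.15656.2 and MSTRG.15656.3 at SNORA16), so that a difference in that direction was favoured for them by the filter. Another 3 passed through PMM alone (MSTRG.11890.2 at GNLY, MSTRG.3198.1 at snoR38 and MSTRG.10888.2 at SNORA74), so that the opposite direction was favoured for these.

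A single transcript, MSTRG.17390.3 at SCARNA13, was higher in LDM at an adjusted p under 0.05, and it was the only one of all 1721 in that direction (0.0581%). None of the 51 was higher in PMM, against 0.116% of all transcripts tested. Past looser thresholds (p under 0.05 before adjustment and 1 or more on the log2 scale) 2 of the 51 were higher in LDM, against 1.34% of all, and none in PMM, against 2.44%. The second was MSTRG.15656.3 at SNORA16. Without overlap of the muscles were 3 transcripts higher in LDM (5.87% of all 1721 tested) and 2 higher in PMM (9.01%), shares of the 51 that were close to or under the background. Among these, MSTRG.17390.3, MSTRG.15656.3 and MSTRG.11890.2 had passed the filter only through the muscle where they were higher. The median difference of the 51 was -0.13 (log2), beside -0.01 for all transcripts tested, and 22 were positive and 29 negative. In bulk tissue, fewer cells of a type and less RNA per cell cannot be told apart.

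**Figure D2:**
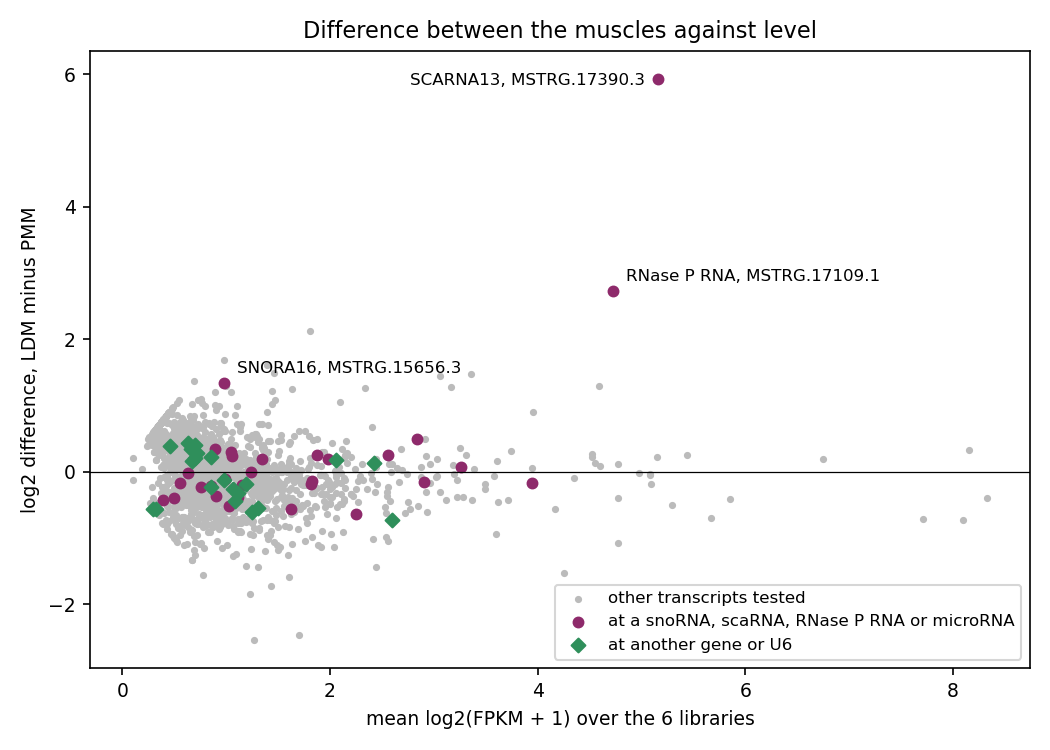
Difference between the muscles, LDM minus PMM, on the scale of log2(FPKM + 1) (vertical axis) against the mean level on that scale (horizontal axis) for the 1721 transcripts tested, 1 point each. Purple circles are transcripts at snoRNAs, scaRNAs, RNase P RNA or microRNAs and green diamonds those at other genes or U6. MSTRG.17390.3 (5.93) and MSTRG.17109.1 (2.73) are the highest points.

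The locus of SCARNA13, a scaRNA whose human host gene is SNHG10, held 4 transcripts on the minus strand of chromosome 7, at 123999097 to 124001534 in the authors' table. The highest, MSTRG.17390.3 (124000307 to 124001534, 3 exons, 659 bases), stood at 132, 311 and 519 FPKM in LDM replicates 1, 2 and 3. In PMM it was at 94.2 FPKM in replicate 2 and was listed at 0 in replicates 1 and 3. Every LDM library was above every PMM library. The difference was 5.93 (log2, SE 1.08, adjusted p = 0.0139 by limma), and the exact two-sided permutation test of the 6 values gave p = 0.1, the smallest that 3 against 3 allow.

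A second transcript of the locus had its highest value in PMM. MSTRG.17390.5 (124000311 to 124001381, 3 exons, 629 bases) stood at 372 and 97.0 FPKM in PMM replicates 1 and 2 and was listed at 0 in replicate 3. In LDM it was at 0.653 and 50.4 FPKM in replicates 1 and 3 and listed at 0 in replicate 2. The order of the pair was thus reversed in PMM replicate 1, they were nearly level in PMM replicate 2, MSTRG.17390.3 was the higher in all of LDM, and both were listed at 0 in PMM replicate 3. MSTRG.17390.5 did not enter the reported fit, since it was not above 0 in all 3 libraries of a muscle. In fits that it entered, its log2 difference was -2.92 without the filter (adjusted p = 9.9e-15), -1.85 without LDM replicate 2 (0.787) and -5.44 without PMM replicate 3 (0.136). The fit without the filter, which sets each transcript's own spread aside, called it higher in PMM, against 0.198% of all 4046 transcripts, and MSTRG.17390.3 and the transcript at RNase P RNA higher in LDM, against 0.222%. The left ends of these transcripts lie 4 bases apart and the right ends 153 bases apart. MSTRG.17390.3 shares its right end with MSTRG.17390.2, and MSTRG.17390.5 with MSTRG.17390.1. Transcripts of a locus share exonic sequence, so the share of reads that the authors' assembly gave to each is uncertain.

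Summed over the 4 transcripts, the locus stood at 137, 316 and 580 FPKM in LDM, beside 376, 199 and 5.49 FPKM in PMM. The muscles overlapped, with PMM replicate 1 between LDM replicates 2 and 3. The difference of the sum was 1.90 (log2, SE 0.87) with an adjusted p of 0.611 in the fit on FPKM summed per gene ID. In that fit none of 40 loci tested was called, against 0.122% of the 1646 loci of the table. MSTRG.17390.3 held 89.5% to 98.3% of the locus in the LDM libraries and 47.3% in PMM replicate 2, while MSTRG.17390.5 held 99.0% in PMM replicate 1 and 48.7% in PMM replicate 2. The sums of the locus thus overlapped, apart from the low PMM replicate 3. The transcript that held most of the locus differed between the LDM libraries and PMM replicate 1.

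The pair MSTRG.17390.1 and MSTRG.17390.2 stayed low. MSTRG.17390.1 was at 3.58, 1.98 and 4.45 FPKM in LDM and 3.34, 2.90 and 1.97 FPKM in PMM. MSTRG.17390.2 was at 1.02, 3.46 and 6.08 FPKM in LDM and 0.362, 5.18 and 3.52 FPKM in PMM. Both overlapped between the muscles, and neither was called (adjusted p = 0.890 and 0.895). In PMM replicate 3 these were the only transcripts of the locus above 0.

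The call of MSTRG.17390.3 held in 5 of 13 other settings. Among these were the fits without a filter and with libraries paired by replicate number, which set its own spread aside. It did not hold with a pseudocount of 0.1 (adjusted p = 0.227 by limma) or 0.01 (0.136). Nor did it hold with a filter of at least 1 FPKM (0.187) or with median-of-ratios scaling (0.156). The call was also lost without LDM replicate 2 (adjusted p = 0.303), LDM replicate 3 (0.271), PMM replicate 1 (0.0764) or PMM replicate 3 (0.415). The log2 difference of MSTRG.17390.3 stayed between 4.83 and 8.12 whichever library was left out. Its size depended on the pseudocount, since PMM replicates 1 and 3 are listed at 0. The difference was 5.93 with a pseudocount of 1, 8.14 with 0.1 and 10.4 with 0.01. SCARNA16, the other scaRNA, had 1 transcript (MSTRG.3185.1, chromosome 12, 4273313 to 4276422) at 1.24, 0.0800 and 0.949 FPKM in LDM and 1.55, 0.769 and 0.629 FPKM in PMM. LDM replicate 2 was the lowest library there, and the muscles overlapped.

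**Figure D3:**
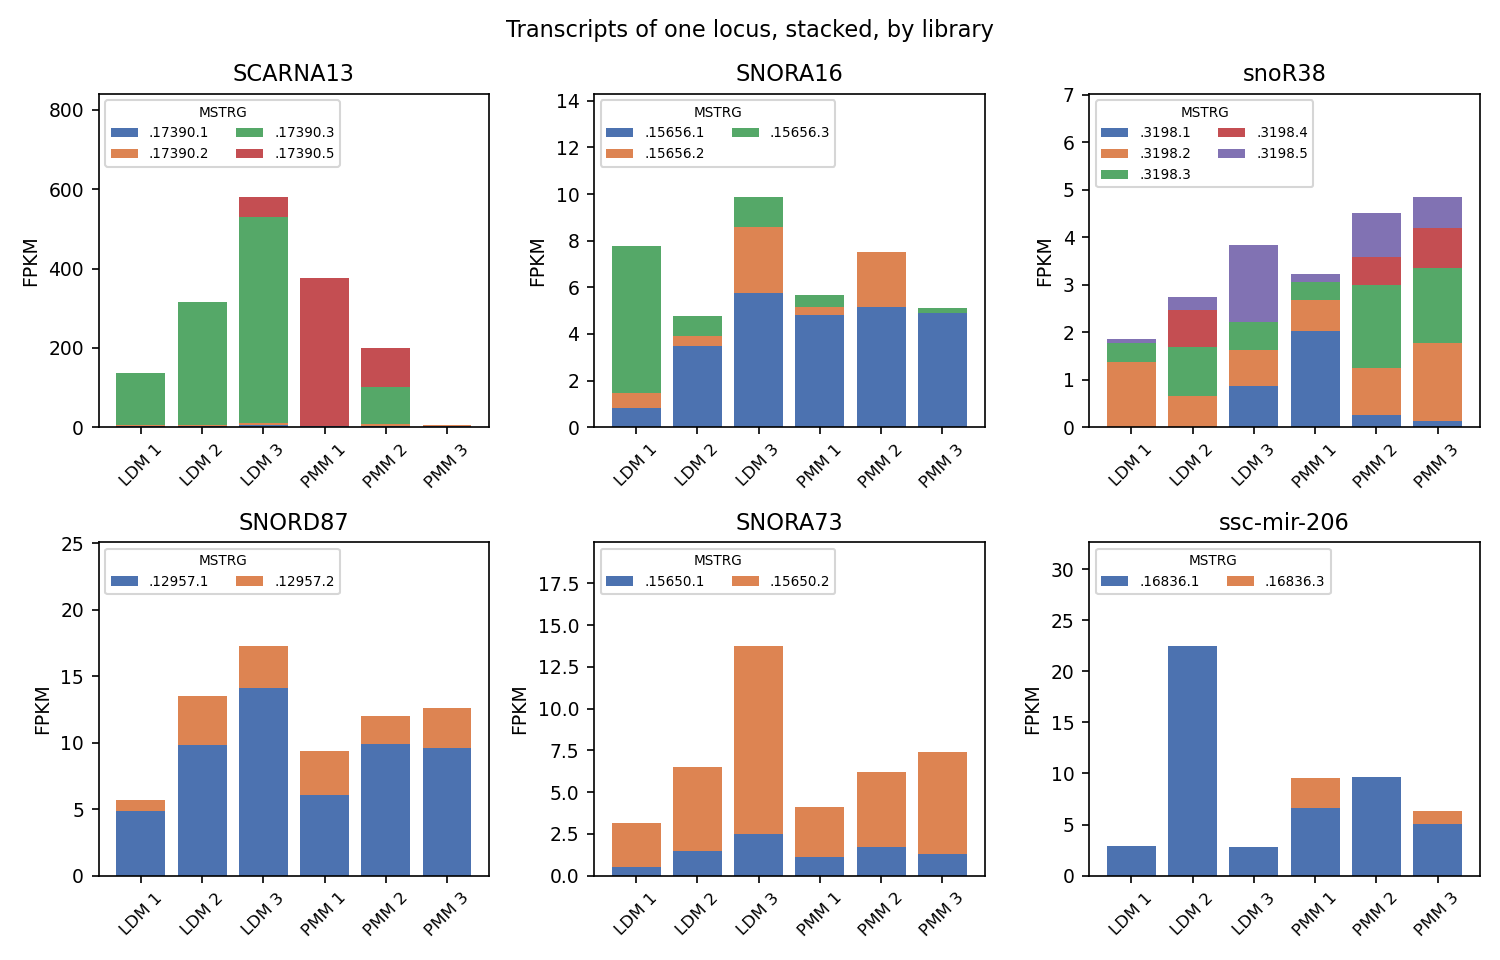
FPKM of the transcripts of 6 loci (bars stacked by transcript, colours within a panel) in the 3 LDM and 3 PMM libraries. At SCARNA13 the green transcript MSTRG.17390.3 fills the LDM bars and the red MSTRG.17390.5 that of PMM replicate 1, at SNORA16 the green MSTRG.15656.3 fills LDM replicate 1, and at SNORD87, SNORA73 and ssc-mir-206 the same transcript leads in all 6 libraries.

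The leading transcript also changed at SNORA16, but only in LDM replicate 1. SNORA16 is a box H/ACA snoRNA hosted in human by SNHG12, with 3 transcripts on chromosome 6 (79407741 to 79411533, minus strand). MSTRG.15656.3 (6 exons, 879 bases) stood at 6.29, 0.867 and 1.27 FPKM in LDM. In PMM it was at 0.540 and 0.234 FPKM in replicates 1 and 3 and listed at 0 in replicate 2. All LDM libraries were above all PMM libraries, but LDM replicate 1 was 4.97 times the next. The difference was 1.34 (log2, SE 0.47, unadjusted p = 0.00983) and did not pass after adjustment over all transcripts (adjusted p = 0.462 by limma). It passed in the fit that treats libraries of the same replicate number as pairs (adjusted p = 0.0168). That fit sets each transcript's own spread aside and called 1.1% of all tested higher in LDM. The transcript had passed the filter through LDM alone.

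The leading transcript of SNORA16 elsewhere, MSTRG.15656.1 (5 exons, 1504 bases), was at 0.825, 3.48 and 5.74 FPKM in LDM and 4.80, 5.16 and 4.89 FPKM in PMM. Its lowest library was LDM replicate 1, the one where MSTRG.15656.3 was highest. It did not differ beyond its spread (log2 difference -0.64, SE 0.42, adjusted p = 0.676). MSTRG.15656.3 held 81.0% of the locus in LDM replicate 1 and at most 18.1% in the other libraries, and the sums of the locus, 7.76, 4.78 and 9.87 FPKM in LDM and 5.67, 7.50 and 5.12 FPKM in PMM, overlapped.

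The largest single value belonged to a spliced transcript that overlaps the annotated RNase P RNA and was not measured separately from it. MSTRG.17109.1 (chromosome 7, 83579866 to 83592441, plus strand, 5 exons, 1069 bases) stood at 3.71, 5825 and 10.6 FPKM in LDM, beside 5.94, 8.69 and 15.3 FPKM in PMM. LDM replicate 2 was 381 times the next library, and the other 5 libraries lay within 3.71 to 15.3 FPKM with the muscles overlapping. In LDM replicate 2 the transcript had a coverage of 42151 reads per base, which corresponds to 45.1 megabases or 0.623% of the gigabases of the library, against 0.000397% to 0.00164% in the others. It ranked 1 in the table there and 30 to 118 elsewhere. FPKM is an average over the length of a transcript, so where along its exons the reads lay is not known.

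The difference of MSTRG.17109.1 was 2.73 (log2, SE 1.51, adjusted p = 0.646 by limma; exact permutation p = 0.8). Without LDM replicate 2 it was -0.48 (adjusted p = 0.699). In the paired fit it was called at an adjusted p of 6.2e-19, since that fit replaced the transcript's own SD of 3.98 by the trend value of 0.345, although its excess rests on 1 library. That fit called 3 of the 51 transcripts higher in LDM, MSTRG.17109.1, MSTRG.17390.3 and MSTRG.15656.3, against 1.1% of all tested, and none higher in PMM, against 1.69%. Summed per gene ID it called 2 of 40 loci, RNase P RNA and SCARNA13, against 2.61% of all. Of the 56 transcripts, 10 were highest in LDM replicate 2, and 3 of these were there at more than 2 times the next library, so the excess was not shared by the class. Transcripts of a like pattern are not named, since any likeness to it would rest on the same library.

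The 6 box C/D snoRNA loci held 12 transcripts, of which 11 were tested and none was called. Over all transcripts tested, 0.0581% were called higher in LDM and 0.116% in PMM. SNORD64 (MSTRG.8597.1, chromosome 17, 37510687 to 37512496) was the highest and among the steadiest, at 10.3, 12.7 and 18.8 FPKM in LDM and 12.9, 17.5 and 15.7 FPKM in PMM. Its means were 13.9 ± 4.38 FPKM (SD, n = 3) in LDM and 15.4 ± 2.33 FPKM (SD, n = 3) in PMM, a log2 difference of -0.16 (SE 0.33, adjusted p = 0.895) that turned positive, 0.091, with median-of-ratios scaling. Over all 6 libraries its highest value was 1.83 times its lowest.

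SNORD87, hosted in human by SNHG6, lay on chromosome 4 (73904648 to 73908582) with 2 transcripts. The longer, MSTRG.12957.1, was at 4.88, 9.81 and 14.1 FPKM in LDM and 6.09, 9.91 and 9.57 FPKM in PMM. LDM replicates 1 and 3 were the lowest and the highest of the 6 libraries, and the difference was 0.08 (log2, SE 0.37, adjusted p = 0.947). It held 65.2% to 85.2% of the locus. The locus summed to 5.72, 13.5 and 17.3 FPKM in LDM and 9.34, 12.03 and 12.59 FPKM in PMM.

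SNORD50, in human within SNHG5, was represented by the longest snoRNA transcripts, MSTRG.377.1 and MSTRG.377.2 of 4772 and 4530 bases (chromosome 1, 61056661 to 61062667, minus strand). MSTRG.377.1 was at 5.28, 6.90 and 11.4 FPKM in LDM and 5.50, 6.23 and 3.72 FPKM in PMM. LDM replicate 3 was the highest and PMM replicate 3 the lowest library, and the difference of 0.49 (log2, SE 0.35, adjusted p = 0.717) was within the spread. MSTRG.377.2 leaned the other way, at 1.05, 0.421 and 0.687 FPKM in LDM and 1.29, 2.36 and 0.869 FPKM in PMM, also with overlap.

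At SNORD89 (MSTRG.11814.1, chromosome 3), whose human copy lies in RNF149, 2 PMM libraries were above all of LDM. It stood at 1.94, 1.77 and 1.02 FPKM in LDM and 3.69, 3.28 and 1.61 FPKM in PMM. The means were 1.58 ± 0.488 FPKM (SD, n = 3) and 2.86 ± 1.10 FPKM (SD, n = 3), with a log2 difference of -0.56 (SE 0.37, adjusted p = 0.686). SNORD88 (MSTRG.15240.1, chromosome 6) was nearly level in PMM, at 1.31, 1.39 and 1.42 FPKM, and ranged over 2.51, 2.60 and 0.589 FPKM in LDM.

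The snoR38 locus (chromosome 12, 4806876 to 4812196, minus strand) had the most transcripts, 5, between 1066 and 3032 bases. Summed, they stood at 1.85, 2.74 and 3.84 FPKM in LDM and 3.23, 4.51 and 4.84 FPKM in PMM, with overlap. The leading transcript changed from library to library. MSTRG.3198.2 held 74.8% in LDM replicate 1, MSTRG.3198.5 42.4% in LDM replicate 3 and MSTRG.3198.1 63.0% in PMM replicate 1. MSTRG.3198.4 was listed at 0 in LDM replicates 1 and 3 and PMM replicate 1, and was not tested.

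The 7 box H/ACA loci held 12 transcripts, all tested and none called, against 0.0581% (LDM) and 0.116% (PMM) of all tested. SNORA73, which takes part in the cleavage of the ribosomal RNA precursor, is hosted in human by SNHG3. Its main transcript here, MSTRG.15650.2 (chromosome 6, 79347780 to 79350429, 711 bases), was at 2.60, 5.03 and 11.3 FPKM in LDM and 2.99, 4.52 and 6.09 FPKM in PMM. LDM held both the lowest and the highest library. The difference was 0.26 (log2, SE 0.41, adjusted p = 0.865) and -0.21 without LDM replicate 3. The transcript held 72.7% to 82.9% of the locus.

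SNORA9, in human within SNHG15, was the steadiest locus. MSTRG.9367.1 (chromosome 18, 55398476 to 55403282) was at 1.95, 2.48 and 2.77 FPKM in LDM and 2.53, 3.44 and 2.33 FPKM in PMM, a span of 1.76 times. With MSTRG.9367.2 added, the locus stood at 2.90, 3.06 and 4.02 FPKM in LDM and 4.16, 4.35 and 4.33 FPKM in PMM. The 3 PMM sums were above all LDM sums by a small margin, as at 9.05% of all 1646 loci tested, and the difference of -0.30 (log2, SE 0.34, adjusted p = 0.783) did not pass.

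SNORA74, in human within SNHG4, was low. MSTRG.10888.1 (chromosome 2, 147010407 to 147015090) was at 0.109, 0.264 and 0.0307 FPKM in LDM and 0.475, 0.299 and 0.814 FPKM in PMM, and every PMM library was above every LDM library (adjusted p = 0.743). With MSTRG.10888.2 the locus stood at 0.796, 0.264 and 0.586 FPKM in LDM and 2.14, 0.314 and 1.22 FPKM in PMM, which overlapped. The leading transcript changed at this locus too, each of the pair leading in 3 libraries.

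The 3 remaining H/ACA loci had 1 transcript each at 0.165 to 2.35 FPKM. SNORA31 (MSTRG.10786.1, in human within TPT1) was highest in LDM replicate 1, at 2.35 FPKM, and at 0.770 to 1.06 FPKM in the other 5 libraries. SNORA24 (MSTRG.18000.1, in human within SNHG8) ranged from 0.370 FPKM in PMM replicate 1 to 2.04 FPKM in LDM replicate 3. SNORA26 (MSTRG.17654.1) was at 0.249, 0.165 and 1.60 FPKM in LDM and 0.504, 0.741 and 1.32 FPKM in PMM, so that replicate 3 was the highest library of either muscle.

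Over the 13 snoRNA loci, sums overlapped between the muscles at 12, and differences ran from -0.56 to 0.31 (log2) with adjusted p of 0.686 to 0.992. The spread among LDM libraries was wider than among PMM libraries at 10 of the 13, with a median coefficient of variation of 48.5% in LDM and 20.4% in PMM. The 20 loci at other genes that were above 0 in all libraries leaned the same way, with a wider spread in LDM at 14 and medians of 60.9% and 39.7%. LDM replicate 3 was the highest library at 7 of the 13 loci (53.8%). It was the highest at 10.1% of the 820 loci of the table outside the class that were above 0 in all libraries, and at 15.7% of the 305 of these with a spliced transcript. The loci of each kind share the same 6 libraries, so these shares are descriptions.

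Measured as the deviation of log2 FPKM from the mean of the locus, the median of the snoRNA loci was 0.39 in LDM replicate 3, where that of the 820 other loci was -0.49. In LDM replicate 2 it was -0.18, against 0.43 for the other loci. In the remaining libraries the medians lay closer together. They were furthest apart in PMM replicate 1, with -0.15 against 0.11, and stood at -0.37 against -0.28 in LDM replicate 1, 0.21 against 0.28 in PMM replicate 2 and 0.18 against 0.04 in PMM replicate 3. LDM replicates 2 and 3 were thus ordered the opposite way by snoRNA loci and by the rest of the table, in which LDM replicate 2 was the highest library at 39.0% of loci and LDM replicate 3 the lowest at 41.1%. The spliced loci outside the class gave 0.19 and -0.11 for LDM replicates 2 and 3. The part of the library in the differences between the muscles was not tested.

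**Figure D4:**
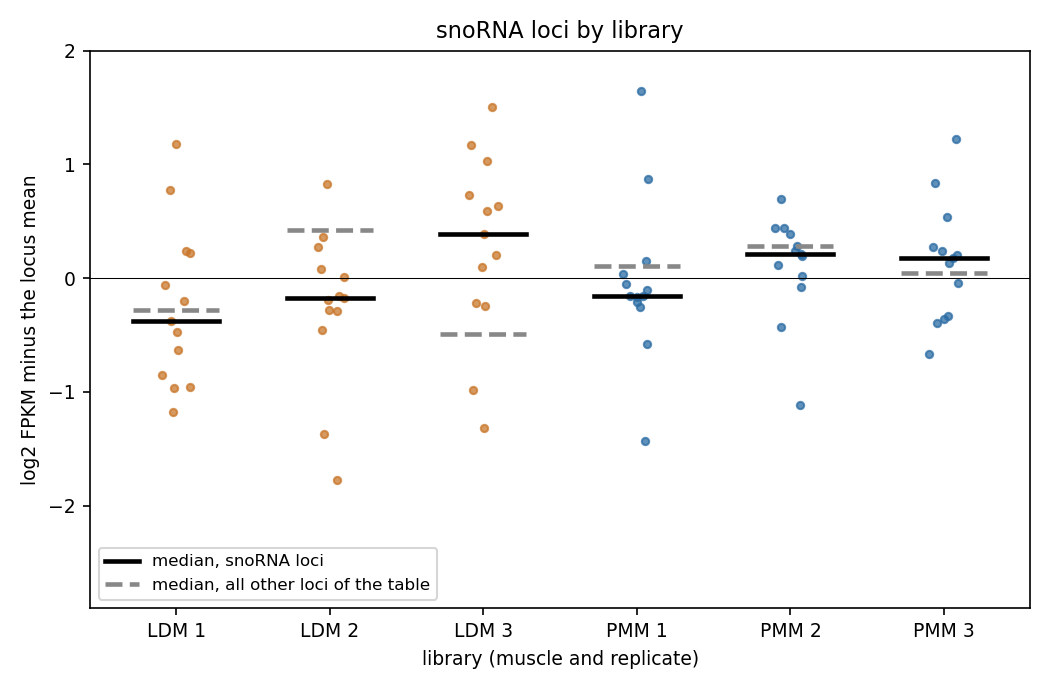
Deviation of log2 FPKM from the mean of the locus (vertical axis) at the 13 snoRNA loci, 1 point per locus and library (orange LDM, blue PMM), with the median of these loci (solid line) and of the 820 other loci (dashed line). The solid line lies at 0.39 and the dashed line at -0.49 in LDM replicate 3, and they lie the other way round in LDM replicate 2.

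At the microRNAs, 3 transcripts of 2 loci were found and none was called, against 0.0581% (LDM) and 0.116% (PMM) of all tested. Mir-206 lies beside mir-133b in the RefSeq gene table of Sscrofa11.1. MSTRG.16836.1 (chromosome 7, 52416803 to 52428135, plus strand, 2 exons, 2694 bases) was at 2.93, 22.4 and 2.85 FPKM in LDM and 6.66, 9.62 and 5.06 FPKM in PMM. LDM replicate 2 was 2.33 times the next library, and the other LDM libraries were below all of PMM. The difference was -0.16 (log2, SE 0.52, adjusted p = 0.923) and turned positive, 0.038, with median-of-ratios scaling. The longer MSTRG.16836.3 (4 exons, 4841 bases) was at 2.94 and 1.26 FPKM in PMM replicates 1 and 3, at no more than 0.0759 FPKM in LDM, and was listed at 0 in PMM replicate 2 and LDM replicate 3. It was not tested.

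Mir-378-1 is listed next to PPARGC1B, a coactivator of mitochondrial genes, in the same RefSeq table. Whether it lies within that gene was not examined. MSTRG.10998.1 (chromosome 2, 157639944 to 157644055, 3288 bases) was at 0.582, 1.39 and 1.35 FPKM in LDM and 1.82, 0.895 and 1.49 FPKM in PMM, and the muscles overlapped (adjusted p = 0.890). The transcript at U6, the RNA at the catalytic centre of the spliceosome, was MSTRG.15322.1 (chromosome 6, 3972 bases). It stood at 1.08, 1.48 and 0.459 FPKM in LDM and 1.44, 0.354 and 0.423 FPKM in PMM.

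Of the 22 transcripts at other genes, 20 were tested and none was called, against 0.0581% (LDM) and 0.116% (PMM) of all tested. They share exons or junctions with a gene, so reads of that gene's own RNA and reads of the noncoding transcript cannot be told apart here. Whether the unnamed genes encode a protein was not looked up. The highest, MSTRG.15116.1 (chromosome 6, 47336964 to 47337475, 416 bases, at the unnamed gene ENSSSCG00000024772), was at 2.16, 2.92 and 7.35 FPKM in LDM and 7.18, 7.60 and 5.76 FPKM in PMM. LDM replicates 1 and 2 were below all PMM libraries and LDM replicate 3 was among them. The difference of -0.73 (log2, SE 0.38, adjusted p = 0.622) did not pass.

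MTX2 encodes metaxin 2, a protein of the outer mitochondrial membrane. Its noncoding transcript of class j, MSTRG.7338.1 (chromosome 15, 91528896 to 91540140, 853 bases), was among the steadiest of all, at 3.32, 4.85 and 6.03 FPKM in LDM and 3.95, 3.71 and 4.76 FPKM in PMM. The difference was 0.13 (log2, SE 0.34, adjusted p = 0.912), and -0.027 without LDM replicate 3. ANAPC13, a subunit of the anaphase-promoting complex, had a transcript of class o (MSTRG.4916.3) at 2.41, 3.50 and 4.65 FPKM in LDM and 1.01, 5.80 and 3.44 FPKM in PMM. PMM held both its lowest and its highest library.

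At C2, a complement component, the class j transcript MSTRG.16563.4 (chromosome 7, 27817839 to 27819242) was at 0.433, 1.28 and 1.18 FPKM in LDM and 2.07, 3.10 and 1.02 FPKM in PMM. PMM replicates 1 and 2 were above all LDM libraries and PMM replicate 3 was not, and the difference was -0.61 (log2, SE 0.39, adjusted p = 0.676). GNLY encodes granulysin, a protein of cytotoxic lymphocytes. Its transcript MSTRG.11890.2, at 216 bases the shortest of the class, was listed at 0 in LDM replicates 1 and 2 and was at 0.0169 FPKM in replicate 3. In PMM it was at 0.274, 0.0727 and 1.41 FPKM. The muscles did not overlap, but the transcript had passed the filter through PMM alone and PMM replicate 3 was 5.15 times the next library. The difference of -0.57 (log2, SE 0.36) did not pass (adjusted p = 0.676). Values under 1 FPKM are compressed by the pseudocount of 1. With a pseudocount of 0.1 the difference was -2.13 (adjusted p = 0.424 by limma) and with 0.01 it was -4.53 (0.0757), neither of which passed. The immune cell markers PTPRC and CD68 name no transcript of the table, so the part of immune cells was not tested.

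The opposite order, with LDM above PMM in every library, was seen at MSTRG.2806.2 (class j, at the unnamed gene ENSSSCG00000009352 on chromosome 11). It stood at 1.43, 0.613 and 0.475 FPKM in LDM and 0.265, 0.397 and 0.335 FPKM in PMM, with an adjusted p of 0.749. At ENSSSCG00000022789 (MSTRG.5516.2, class j) the values were 0.364, 2.01 and 1.11 FPKM in LDM and 1.50, 2.65 and 1.95 FPKM in PMM, a difference of -0.55 (log2, SE 0.39, adjusted p = 0.712). At ENSSSCG00000025184 the longest transcript of the class, MSTRG.13053.2 of 13235 bases, was at 1.27 and 0.545 FPKM in PMM replicates 2 and 3 and at no more than 0.0757 FPKM in the other 4 libraries, PMM replicate 1 included (log2 difference -0.56, SE 0.36, adjusted p = 0.676). Its difference also grew with a smaller pseudocount, to -1.84 with 0.1 and -2.87 with 0.01, without a call (adjusted p = 0.583 by limma in either).

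Several class j transcripts varied widely among libraries of a muscle. FNDC1, a fibronectin type III domain protein, had MSTRG.61.2 at 0.0158, 2.67 and 0.515 FPKM in LDM and 0.0165, 1.04 and 0.328 FPKM in PMM, with replicate 2 the highest and replicate 1 the lowest of each muscle. ST3GAL1, a sialyltransferase, had MSTRG.12622.1 at 2.37 FPKM in LDM replicate 3 and at 0.225 to 0.683 FPKM in the other 5. CCL25, a chemokine, had MSTRG.10257.2 at 1.48 FPKM in PMM replicate 2 and listed at 0 in the other 5, while an intergenic transcript of the same locus, MSTRG.10257.3, led in those 5. MSTRG.10257.2 and MSTRG.5079.1, which was above 0 only in LDM replicates 2 and 3 (0.244 and 0.165 FPKM), are the 2 transcripts at other genes that were not tested.

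The remaining named genes with a class j transcript overlapped between the muscles. WIPI2, a factor of autophagosome formation, had MSTRG.11086.3 at 0.950, 1.62 and 0.420 FPKM in LDM and 1.44, 1.84 and 1.03 FPKM in PMM. PEAK1, a pseudokinase, had MSTRG.16938.2 at 0.892, 1.57 and 0.0892 FPKM in LDM and 1.10, 0.305 and 0.249 FPKM in PMM. LDLRAD4, an inhibitor of TGF-beta signalling, had MSTRG.15800.2 at 1.32, 0.639 and 0.709 FPKM in LDM and 0.662, 0.464 and 0.156 FPKM in PMM, with the lowest LDM library below the highest of PMM by a small step. At CH242-124P4.2 on chromosome X, MSTRG.19716.1 was at 1.08, 0.336 and 1.42 FPKM in LDM and 0.842, 0.816 and 1.61 FPKM in PMM. MSTRG.12268.2, at an Ensembl ID whose symbol is CDC42EP3 (a partner of the small GTPase CDC42), was nearly level in PMM at 1.39, 1.70 and 1.37 FPKM and ranged over 0.241, 2.15 and 0.536 FPKM in LDM.

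Among the class o transcripts at other genes, KMT2E (a SET domain protein of chromatin) had MSTRG.18953.2 with 5 exons, the most of any transcript at another gene. It was at 1.29, 0.876 and 1.32 FPKM in LDM and 0.873, 1.77 and 1.79 FPKM in PMM. On chromosome X, MSTRG.19581.1 at ENSSSCG00000019673 was at 0.971, 1.27 and 0.570 FPKM in LDM and 1.12, 1.38 and 1.40 FPKM in PMM. The transcript at PPM1L, a protein phosphatase, was MSTRG.5090.1, at 0.861, 0.886 and 0.336 FPKM in LDM and 0.774, 1.77 and 0.517 FPKM in PMM. In all of these the muscles overlapped.

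**Figure D5:**
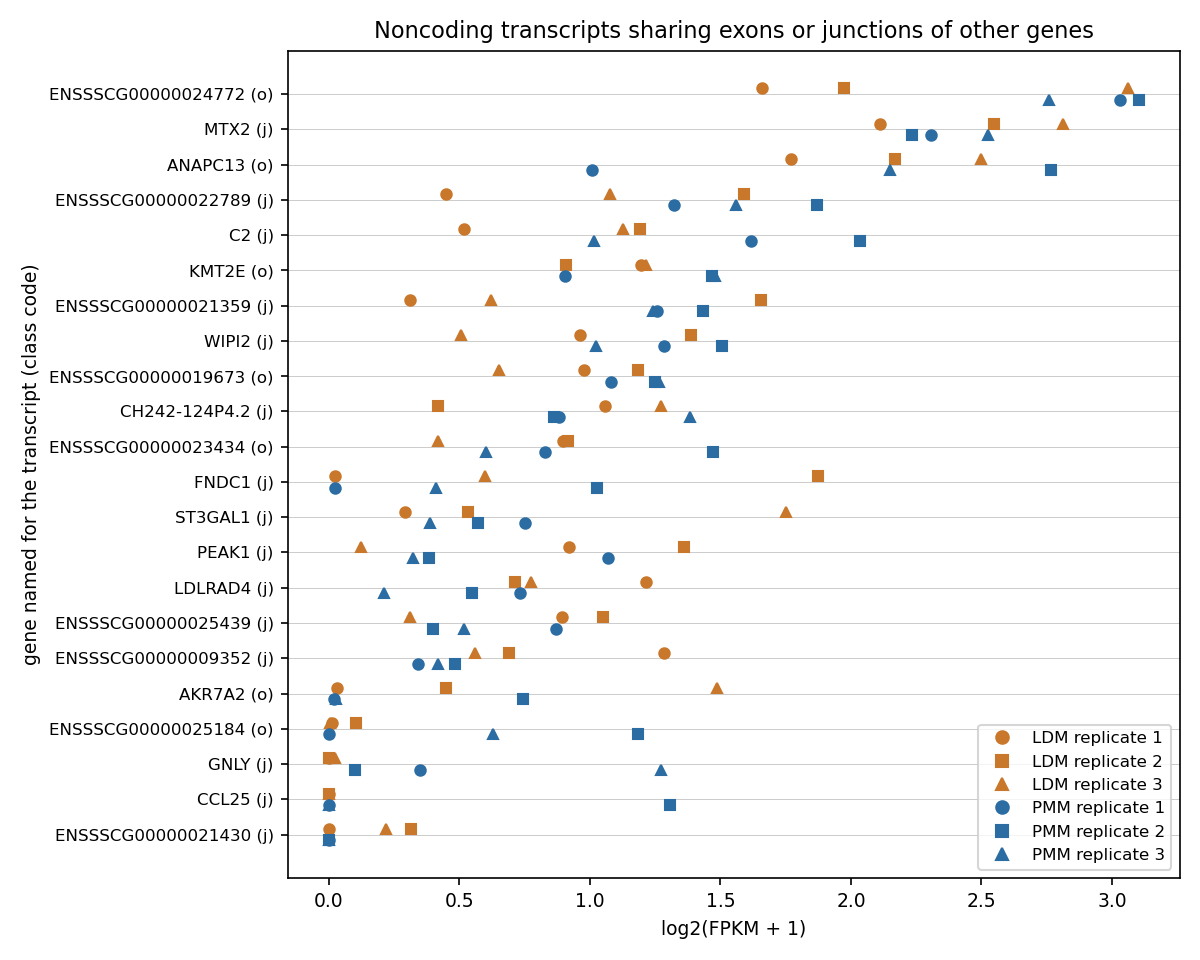
Level of each of the 22 transcripts at other genes on the scale of log2(FPKM + 1), 1 point per library with LDM above and PMM below each line, labelled by gene and class code (o or j). The points of LDM and PMM intermingle except at GNLY, where PMM is higher, and at ENSSSCG00000009352, where LDM is higher.

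Of the 10 loci that had several transcripts in the table, the same one led in all 6 libraries at 5, namely SNORD87, SNORD50, SNORA73, SNORA9 and mir-206. At the other 5, SCARNA13, SNORA16, SNORA74, snoR38 and CCL25, the leading transcript changed with the library. The call at SCARNA13 and the difference past the unadjusted thresholds at SNORA16 came from loci of the second kind, and neither passed after adjustment once the locus was summed, in the fit without the replicate block.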

How the data were processed

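The authors removed ribosomal RNA, sequenced paired reads of 150 bases and aligned them with TopHat, with Sscrofa11.1 named in the methods. The positions given are those of the deposited table, and they do not match a gene table of that assembly. On 18 of 19 chromosomes they run past its last gene, and none of 15 gene names found once in it overlapped its transcript. Which build was used is not settled. For every library the deposited table holds FPKM as computed by the authors and their read coverage, a signal without scaling between libraries. Its ratio to FPKM was constant within a library and gave the gigabases. The deposited CPC and CNCI scores, lengths, exon numbers and positions were used as given.

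FPKM was tested as log2(FPKM + 1) with limma 3.58.1 (R 4.3.3), moderated with an intensity trend, two-sided, Benjamini-Hochberg adjusted over 1721 transcripts, and single values with exact permutation tests. Cuffdiff, used by the authors, needs reads. Where nothing ties libraries to animals, p-values measure the spread between these libraries. The fit was tested on simulated data with normally distributed noise. These held neither listed zeros nor an outlying library, so that test does not bear on such cases. Members, gene lists and naming rule (all at small RNAs; at other genes, the highest by mean FPKM, the smallest p in each direction, and named class j genes) were chosen with earlier results of these data known. Both muscles of a donor were sampled, but no source says which libraries share one. After the mean of each muscle was taken off, the correlation between LDM and PMM libraries was 0.239, 0.123 and 0.168 for equal replicate numbers and -0.179 to 0.0423 for unequal ones. These values depend on each other, since deviations within a muscle sum to 0, and pairing by number is an assumption of the alternative fit. Alternatives were other pseudocounts, filters, scaling, no trend, the replicate block, each library left out and, added after the data were seen, sums per gene ID. Sequences and mRNAs were not analysed here. Tables and plots were made in Python 3.11.15 with matplotlib 3.10.9, pandas 2.3.3, scipy 1.17.1 and numpy 2.4.6.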

Additional observations from a re-analysis of the deposited data

How the results depend on the processing

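The count of transcripts called at an adjusted p under 0.05, 1 in the reported fit, was 0 with a pseudocount of 0.1 or 0.01, with a filter of at least 1 FPKM, with median-of-ratios scaling and with FPKM summed per gene ID (added after the data were seen). It was 3 without a filter (2 higher in LDM, 1 in PMM) and 0 to 1 with a library left out. With the replicate block, the pairing by number, it was 3 (RNase P RNA, SCARNA13 and SNORA16), against 1.1% of all transcripts higher in LDM and 1.69% in PMM, and with sums per gene ID 2 loci (RNase P RNA and SCARNA13), against 2.61% of all. The fits with the block or without a filter set each transcript's own spread aside, and the block changed no other call. The count past the unadjusted thresholds, 2, was 4 without a filter, 1 with at least 1 FPKM and 1 with sums per gene ID. With a library left out it was 2 to 4 (4 without LDM replicate 3). With a pseudocount of 0.1 or 0.01 it was 3 (2 higher in LDM, 1 in PMM), and with the replicate block 3, all higher in LDM. At 1 FPKM or more in all 3 libraries were 14 transcripts in LDM and 21 in PMM, in place of 48 and 48 above 0.

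Of 16 log2 differences reported with an error, 10 kept their direction in every setting and 13 their call. Median-of-ratios scaling moved the median of all transcripts from -0.01 to 0.09 and turned MSTRG.16836.1 (mir-206) to 0.038 and MSTRG.8597.1 (SNORD64) to 0.091. With a library left out, MSTRG.17109.1 (RNase P RNA) ranged from -0.48 to 4.65, MSTRG.16836.1 from -1.02 to 0.28, MSTRG.8597.1 from -0.39 to 0.019, MSTRG.7338.1 (MTX2) from -0.027 to 0.325, MSTRG.12957.1 (SNORD87) from -0.23 to 0.45 and MSTRG.15650.2 (SNORA73) from -0.21 to 0.68. MSTRG.17390.3 (SCARNA13) had an adjusted p of 1.2e-90 to 0.415 over its 13 alternatives. At the lowest values depth is the limit: the 0.0169 FPKM of MSTRG.11890.2 (GNLY) in LDM replicate 3 stand for 3.2e-05 megabases, less than 1 read of 150 bases, so a transcript listed at 0 is not shown to be absent.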
